A study of Rattus norvegicus with 12 samples.

Results

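The genes described here make ribosomes. They are 49 genes for RNA polymerase I and for ribosome biogenesis, listed by name for their known roles and found by gene symbol among the 18469 genes of the deposited tables. Their RNA was measured by RNA-seq in neonatal rat ventricular myocytes (NRVMs), primary heart muscle cells of newborn Sprague-Dawley rats kept in culture. The 12 libraries formed 4 groups of 3. All cells were transfected with a small interfering RNA (siRNA), either a negative control (siNeg) or one against Slc25a26 (siSlc25a26), the carrier that brings S-adenosylmethionine into mitochondria. From 12 h after transfection, 1 group of each siRNA was given phenylephrine (PE), which stimulates α-adrenergic receptors and the growth of heart muscle cells, for 36 h, and the other group of each siRNA stayed untreated. The groups are named here by their labels, as siNeg and siNeg PE for the control siRNA and siSlc25a26 and siSlc25a26 PE for the other. The siRNA and the times are those of the labels. The paper that names these data as its own describes an siRNA against another gene, Nap1l5, and other times, so the identity of the siRNA rests on the labels here. The design asks how the hypertrophic stimulus and the siRNA against Slc25a26, alone and together, go with the RNA levels of the ribosome-making machinery.

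The targeted gene checked the labels of the libraries only in part. The level of Slc25a26, in CPM (counts scaled to the library size with the TMM factors of edgeR), was 33.2, 31.6 and 29.3 in the siNeg libraries, 113, 106 and 86.2 in siNeg PE, 15.8, 14.9 and 14.7 in siSlc25a26 and 102, 106 and 98.8 in siSlc25a26 PE. Without PE, Slc25a26 was lower in the libraries labelled siSlc25a26 (log2 fold change -1.08, SE 0.08, adjusted p = 1.1e-05). Under PE, the libraries labelled siSlc25a26 PE lay among the siNeg PE libraries (log2 fold change -0.0062, SE 0.10, adjusted p = 0.97), so that the knockdown was not seen in the RNA of these libraries. Every direction given below for the libraries labelled siSlc25a26 PE carries this limit. Nppa and Nppb, which encode natriuretic peptides and are marker genes of cardiomyocyte hypertrophy, rose with PE in siNeg by log2 fold changes of 4.63 and 5.37. They were also higher in the libraries labelled siSlc25a26 than in siNeg, without PE (1.14 and 1.97) and under PE (1.02 and 1.91), and the part of this difference in the results below was not tested.

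Ribosome production starts in the nucleolus. RNA polymerase I, with its initiation factors, transcribes the long precursor of the 18S, 5.8S and 28S ribosomal RNAs. Box C/D and box H/ACA small nucleolar ribonucleoproteins (snoRNPs) methylate and pseudouridylate this RNA. The small-subunit (SSU) processome folds and cuts the part that becomes the 40S subunit, late 40S factors finish it in the cytoplasm, and a separate set of factors builds the 60S subunit. Growing cells need more ribosomes, and in cardiomyocytes an increase in ribosome production goes with hypertrophic growth.

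The promoters of 44 of the 49 genes were present in the RefSeq table of promoters (assembly GRCr8, a later build than the Rnor_6.0 of the deposited files). The 250 bases before the start of each gene were searched on both strands. The palindromic E-box CACGTG, which MYC and related factors bind, was in 10 of the 44 promoters (22.7%), compared with 7.46% of the 13698 promoters of genes in the tables and 5.79% of all 27457 promoters in RefSeq. The core CCGGAAG, recognised by ETS factors, was in 18 of 44 (40.9%, compared with 12.4% of genes in the tables). The GC box GGGCGG was in 63.6% (compared with 52.1%), CCAAT in 20.5% (compared with 35.1%) and TATAAA in 4.5% (compared with 8.1%). No motif is contained in another. A match of letters describes the sequence and does not show that a factor binds there. Below are 3 promoters that hold the E-box, in genes whose RNA moved in different ways, and the promoter of Rrp12, the gene with the largest rise under PE in the libraries labelled siSlc25a26, which holds none. Each sequence is given 5′ to 3′ on the strand of the gene and ends at the base before the start, with the E-box in capitals.
Mybbp1a (GRCr8, chr10:57555208-57555457, plus strand): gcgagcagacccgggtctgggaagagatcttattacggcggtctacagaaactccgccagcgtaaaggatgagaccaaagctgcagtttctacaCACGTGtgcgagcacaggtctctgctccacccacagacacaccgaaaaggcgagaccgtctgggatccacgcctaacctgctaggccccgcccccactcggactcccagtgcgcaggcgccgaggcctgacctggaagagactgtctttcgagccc
Pes1 (GRCr8, chr14:83074096-83074345, plus strand): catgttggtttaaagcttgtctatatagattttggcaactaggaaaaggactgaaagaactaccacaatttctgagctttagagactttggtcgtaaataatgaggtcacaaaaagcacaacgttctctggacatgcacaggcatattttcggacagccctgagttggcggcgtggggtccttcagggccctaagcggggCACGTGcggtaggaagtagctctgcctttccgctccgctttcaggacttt
Gnl3 (GRCr8, chr16:6219783-6220032, minus strand): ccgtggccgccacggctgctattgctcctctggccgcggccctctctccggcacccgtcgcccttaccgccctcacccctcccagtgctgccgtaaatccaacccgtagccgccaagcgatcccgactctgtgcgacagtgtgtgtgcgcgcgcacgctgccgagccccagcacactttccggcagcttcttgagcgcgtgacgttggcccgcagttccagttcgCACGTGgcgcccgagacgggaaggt
Rrp12 (GRCr8, chr1:250655319-250655568, minus strand): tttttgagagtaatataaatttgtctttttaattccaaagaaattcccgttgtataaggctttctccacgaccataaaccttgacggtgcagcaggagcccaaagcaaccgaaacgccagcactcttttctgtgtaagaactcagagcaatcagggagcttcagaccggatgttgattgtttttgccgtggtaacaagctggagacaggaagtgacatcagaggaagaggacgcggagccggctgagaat
The E-box began 156 bases before the start in Mybbp1a, 50 in Pes1 and 25 in Gnl3. With PE in the libraries labelled siSlc25a26, the median log2 fold change was 0.18 over the 10 genes with it and 0.27 over the other 34, while under PE it was 0.26 and 0.27, with PE in siNeg -0.069 and 0.067 and without PE 0.0051 and 0.035, and the median difference between PE effects was 0.20 and 0.13. No test was made of these splits. The 10 genes with an E-box are Mybbp1a, Dkc1, Rrp7a, Utp4, Utp20, Wdr75, Ltv1, Pes1, Rrp1 and Gnl3.

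Each library held 24770972 to 28709049 counts. At this depth 3 counts, the smallest level taken as detected, equal 0.099 to 0.12 CPM, and the limit covers counting error only. The lowest count of any of the 49 genes in a library was 176 (Gar1) and the highest 6113 (Npm1), so that all 49 genes passed the filter on low counts and were tested in every comparison. The cardiomyocyte markers were present in every library: the 10 markers summed to 26700 to 27900 CPM in siNeg, 41400 to 48600 in siNeg PE, 22900 to 25000 in siSlc25a26 and 55900 to 58800 in siSlc25a26 PE. The 10 fibroblast markers summed to 21900 to 24000, 11900 to 12400, 12800 to 14400 and 9010 to 9790 CPM in the same order. RNA of fibroblasts was thus present as well, and the sums differed between the groups. Col1a1 alone held much of each sum, with means of 13300, 7000, 8070 and 5630 CPM. By single gene, 6 fibroblast markers fell and 2 rose with PE in siNeg. Of the cardiomyocyte markers 6 rose and 1 fell there, with Actc1 at means of 6470 CPM in siNeg and 19900 in siNeg PE. The 10 macrophage and leukocyte markers summed to 111 to 133, 61.4 to 70.6, 59.8 to 69 and 41.6 to 49.2 CPM, with Cd3e at 0 in some libraries, and the 10 endothelial markers to 52.4 to 56.1, 36.7 to 42.5, 45 to 47.5 and 43.6 to 46.2 CPM, with Emcn at 0 in some. The 10 cycling-cell markers summed to 319 to 341, 485 to 545, 269 to 299 and 307 to 353 CPM. The 10 interferon response genes summed to 78.7 to 106 CPM in siNeg and 57.1 to 74.5 in siNeg PE, but to 6940 to 7580 in siSlc25a26 and 4210 to 4700 in siSlc25a26 PE. The part of these markers in the results below was not tested. In bulk RNA, fewer cells of a type and less RNA per cell cannot be told apart. Within siNeg PE, replicate 3 had less Nppb (311 CPM, compared with 657 and 698), and calls that were lost without it are given below.

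Transcript levels differed widely among the 49 genes. Compared per length, as FPKM, the authors' values scaled by gene length and depth, the highest means in siNeg were those of Nop10 (147) and Npm1 (125), followed by Ncl (46.7) and Fbl (44.4). The lowest were those of Heatr1 (2.53), Utp20 (2.57), Brix1 (4.08) and Polr1b (4.12), and the median was 14.7. The summed level of the 49 genes was 2072 to 2119 CPM in siNeg, 2110 to 2178 in siSlc25a26, 2181 to 2342 in siNeg PE and 2451 to 2627 in siSlc25a26 PE. The libraries labelled siSlc25a26 PE were thus the highest on the TMM scale, without overlap with another group. As a share of all counts, without TMM factors, siSlc25a26 PE (0.226% to 0.249%) overlapped siNeg PE (0.213% to 0.23%) and siSlc25a26 (0.219% to 0.229%), and was above siNeg (0.214% to 0.218%). In each library labelled siSlc25a26 PE, 38 to 41 of the 49 genes lay above their siNeg mean. The siNeg PE libraries had 25 to 32, the siSlc25a26 libraries 29 to 36 and the siNeg libraries themselves 21 to 29. The share over all genes was not counted.

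**Figure D1:**
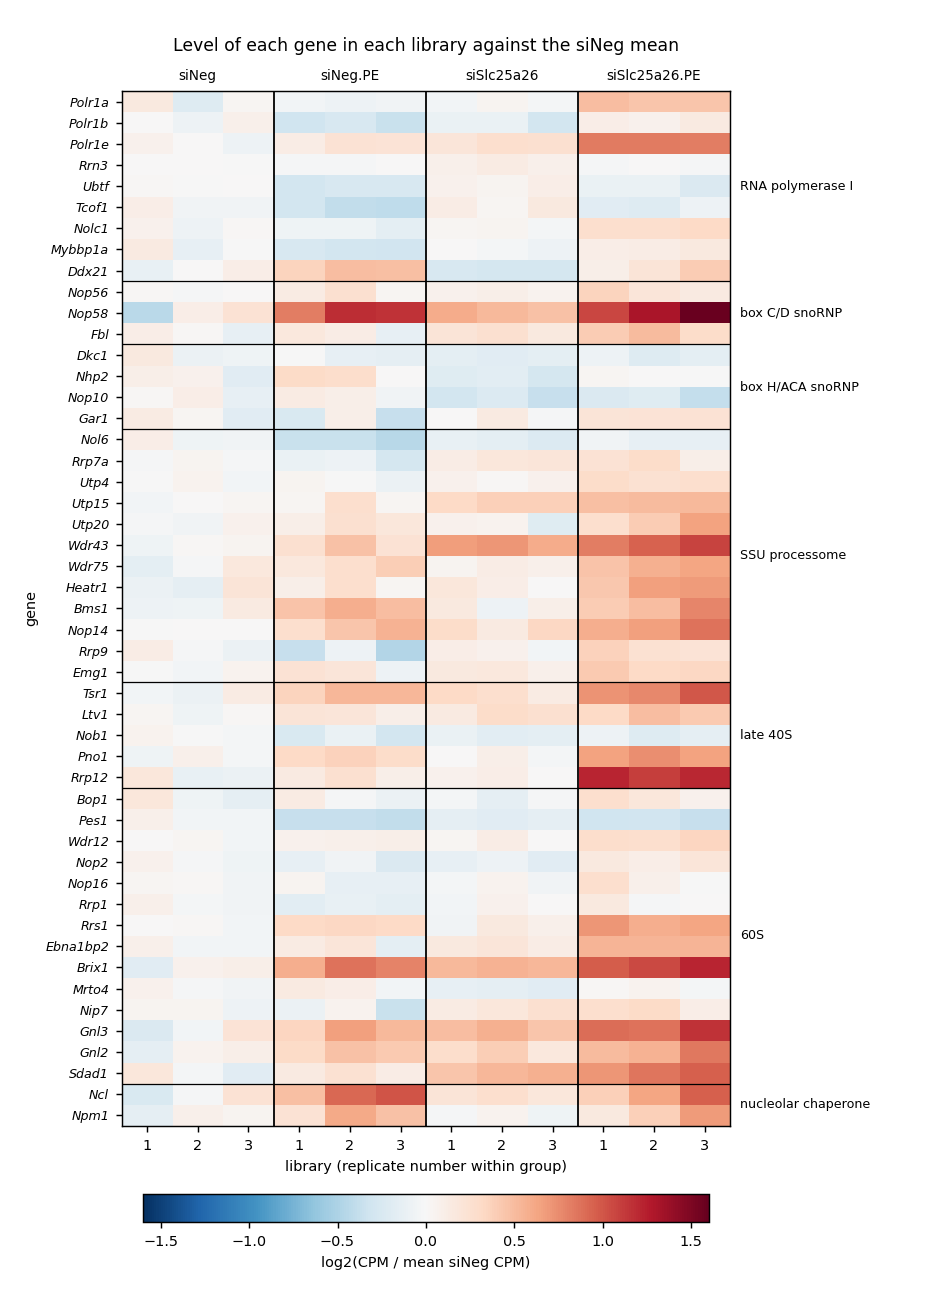
Level of each of the 49 genes (vertical axis, by role) in each of the 12 libraries (horizontal axis, 3 per group), coloured by log2 of the CPM over the siNeg mean. The libraries labelled siSlc25a26 PE are red in most genes, with a median of 0.288 to 0.326 per library, while the siNeg PE libraries hold both red and blue genes.

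PE in siNeg moved the genes in both directions. Of the 49, 13 rose and 7 fell at an adjusted p under 0.05 (quasi-likelihood test of edgeR, adjusted by Benjamini-Hochberg over all genes), and 29 did not pass the test. The share that rose, 26.5%, was close to that of all genes tested (25.2%), and the share that fell, 14.3%, was below theirs (24.3%). The median log2 fold change was 0.07 over the 49 genes and 0.00016 over all genes, and it was 0.14 without siNeg PE replicate 3. Above a 1.5-fold change, 3 genes rose and no fall was as large, compared with 12.4% and 8.24% of all genes.

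Nop58 and Ncl had the largest rises with PE in siNeg. Nop58, a core protein of the box C/D snoRNPs, was at 9.64, 14 and 15.3 CPM in siNeg and 23, 29.6 and 28.9 CPM in siNeg PE (log2 fold change 1.05, SE 0.17, adjusted p = 0.0017). Ncl encodes nucleolin, a major nucleolar RNA-binding protein, and went from 98.8, 115 and 137 to 163, 222 and 236 CPM (log2 fold change 0.81, SE 0.16, adjusted p = 0.0036). Both genes were higher in every PE library than in any siNeg library, which the rule for naming the largest changes required. Npm1, nucleophosmin, rose less (log2 fold change 0.43, SE 0.10, adjusted p = 0.0086). Npm1 has many processed copies in mammalian genomes, so that its count depends on how shared reads were assigned. The other core box C/D proteins did not pass the test, with log2 fold changes of 0.13 for Nop56 and 0.048 for Fbl, the methyltransferase fibrillarin. Nor did the 4 box H/ACA proteins pass, the pseudouridine synthase Dkc1 (-0.11), Nhp2 (0.19), Nop10 (0.053) and Gar1 (-0.17).

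Among the 60S factors, 4 of 14 rose and 1 fell with PE in siNeg. Brix1, a factor for 60S assembly, was at 8.23, 9.8 and 10 CPM in siNeg and 14, 17.1 and 16.2 CPM in siNeg PE (log2 fold change 0.74, SE 0.12, adjusted p = 0.0015). The nucleolar GTPase Gnl3, also called nucleostemin, was at 9.46, 10.8 and 12.9 and, with PE, 14.1, 17.5 and 15.9 CPM (log2 fold change 0.51, SE 0.13, adjusted p = 0.015). Its adjusted p was 0.053 without siNeg replicate 2 and 0.054 without siNeg PE replicate 2. The related GTPase Gnl2 (0.39) and Rrs1 (0.32), which helps to load the 5S RNA, also rose. Pes1 forms the PeBoW complex with Bop1 and Wdr12. It fell, from 83.6, 76.5 and 76.5 CPM to 61.2, 61.3 and 60 CPM (log2 fold change -0.39, SE 0.059, adjusted p = 0.0012), while Bop1 (-0.00072) and Wdr12 (0.073) did not pass the test.

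Of the 12 SSU processome genes, Bms1, Nop14 and Wdr43 rose and Nol6 fell with PE in siNeg. Bms1 is a GTPase of the processome, with 16.1, 16.2 and 18.7 CPM in siNeg and 23.4, 25.4 and 23.9 CPM in siNeg PE (log2 fold change 0.50, SE 0.085, adjusted p = 0.002). Nol6, which joins the processome with Rrp7a, was at 63.4, 56 and 56.6 CPM in siNeg and 45.7, 46 and 43.2 CPM in siNeg PE (log2 fold change -0.40, SE 0.069, adjusted p = 0.0022). Rrp7a was at 40.1, 42.1 and 40.1 and, with PE, 38, 38.6 and 33.6 CPM and did not pass the test (log2 fold change -0.16, SE 0.069, adjusted p = 0.078). Nop14 had a log2 fold change of 0.42 and Wdr43 of 0.31, the latter with an adjusted p of 0.058 without siNeg PE replicate 2. Of the 5 late 40S genes, the GTPase-like factor Tsr1 (0.46) and Pno1 (0.32) rose, and Nob1, the endonuclease that makes the 3′ end of 18S RNA, fell (-0.23). The call for Nob1 was lost in 4 of the 6 fits that left out 1 library, with siNeg replicates 1 and 2 and siNeg PE replicates 1 and 3 (adjusted p = 0.061 to 0.088).

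Of the 9 RNA polymerase I genes, 4 fell and 1 rose with PE in siNeg. Tcof1 encodes treacle, a nucleolar factor of polymerase I transcription, and was at 58.9, 52.7 and 52.9 CPM in siNeg and 44.8, 41.8 and 41.2 CPM in siNeg PE (log2 fold change -0.38, SE 0.07, adjusted p = 0.003). Polr1b, the second-largest subunit of the polymerase, was at 14.8, 14 and 15.6 and, with PE, 11.9, 12.4 and 11.6 CPM (log2 fold change -0.32, SE 0.087, adjusted p = 0.017), and its adjusted p was 0.051 without siNeg replicate 3. Mybbp1a, a Myb-binding protein of the nucleolus, was at 140, 116 and 126 and, with PE, 106, 104 and 103 CPM (log2 fold change -0.29, SE 0.073, adjusted p = 0.011). In each of the 3 genes every PE library lay below every siNeg library, which the rule for naming the largest changes required. Ubtf, the factor that keeps ribosomal DNA open, fell as well (-0.28), and the RNA helicase Ddx21 rose (0.43). The largest subunit Polr1a (-0.073), Polr1e (0.18), the initiation factor Rrn3 (-0.022) and Nolc1 (-0.11) did not pass the test.

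**Figure D2:**
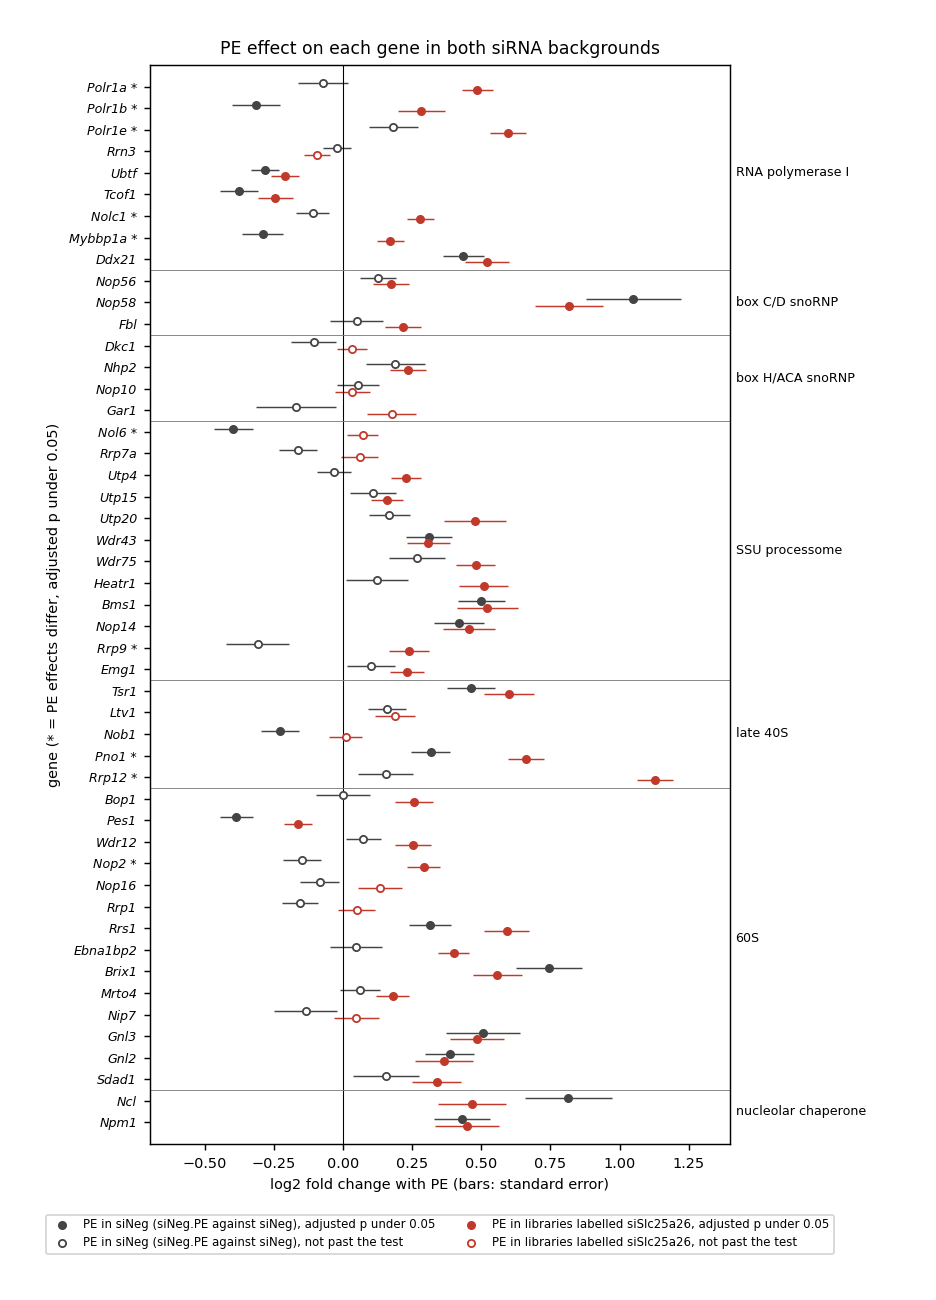
log2 fold change with PE (horizontal axis, bars are standard errors) of each of the 49 genes (vertical axis, by role) in siNeg and in the libraries labelled siSlc25a26, with filled points where the adjusted p is under 0.05 and an asterisk where the 2 PE effects differ. In the RNA polymerase I group of 9 genes, 4 fell and 1 rose past the test in siNeg (24.3% and 25.2% of all genes tested). In the libraries labelled siSlc25a26, 6 of the 9 rose and 2 fell (26.4% and 26% of all genes tested).

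In the libraries labelled siSlc25a26, PE went with a rise of most of the genes. Here 35 of the 49 genes rose and 3 fell, and 11 did not pass the test. This is 71.4% and 6.12% of the 49, compared with 26.4% and 26% of all genes tested. The median log2 fold change was 0.26, compared with -0.0036 over all genes. Most changes were small: 6 genes rose above 1.5-fold and no fall was as large, compared with 10.1% and 10.4% of all genes. The counts depend on the values tested. On the FPKM values of the authors limma found 15 rises and 5 falls, whereas limma-voom on the counts and edgeR with the size factors of DESeq2 both found 35 and 3. On the FPKM values the median of all genes itself moved to -0.13 (pseudocount 1). Relative to all genes, the median of the 49 was higher by 0.26 on the TMM scale and by 0.23 and 0.28 on the FPKM scale with pseudocounts of 1 and 0.1. Without siSlc25a26 PE replicate 2, 1 gene fell in place of 3. The cardiomyocyte markers (8 of 10 rose) and the interferon response genes (9 of 10 fell) moved with this comparison too, which was not tested further.

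Rrp12 had the largest rise. It encodes a HEAT-repeat protein for maturation and export of ribosomal subunits, and was at 22.6, 23.2 and 21.5 CPM in the libraries labelled siSlc25a26 and 50.1, 46.3 and 49.7 CPM in those labelled siSlc25a26 PE (log2 fold change 1.13, SE 0.065, adjusted p = 1.7e-06). The level in siNeg PE was 23.7, 25.7 and 23 CPM, so that only the libraries labelled siSlc25a26 PE stood apart among the 4 groups. Nop58 was at 19.6, 18.7 and 18 and, with PE, 27.3, 32.1 and 38.9 CPM (log2 fold change 0.82, SE 0.12, adjusted p = 0.00052). Pno1, the partner of Nob1 on the pre-40S subunit, was at 22.9, 24.5 and 22.5 and, with PE, 35.7, 38.2 and 35.9 CPM (log2 fold change 0.66, SE 0.065, adjusted p = 4.3e-05). Tsr1 was at 36.6, 35.5 and 32.3 and, with PE, 48.3, 50.1 and 58.6 CPM (log2 fold change 0.60, SE 0.089, adjusted p = 0.0005). Polr1e, a subunit of RNA polymerase I, was at 15.7, 16.5 and 16.3 and, with PE, 24.3, 24.3 and 24.2 CPM (log2 fold change 0.60, SE 0.066, adjusted p = 8.9e-05). In all of these genes the groups did not overlap, which the rule for naming the largest changes required.

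Genes of each step of the pathway were among those that rose. Of the 12 SSU processome genes 10 rose, among them Utp20 (0.48), Heatr1 (0.51), Wdr75 (0.48), Utp4 (0.23), the U3 snoRNP protein Rrp9 (0.24) and the methyltransferase Emg1 (0.23). Utp4, Utp15, Wdr43, Wdr75 and Heatr1 belong to the subcomplex of the processome that binds the precursor RNA first. Utp15 rose by 0.16 on the TMM scale, but its sign turned on the FPKM scale (-0.0147 with pseudocount 1), and its call was lost in each fit that left out 1 library. Nol6 (54, 52.8 and 50.3 and, with PE, 56.3, 53.8 and 53.8 CPM) and Rrp7a (44.2, 46.1 and 46.5 and, with PE, 47.9, 50.2 and 43.5 CPM) did not pass the test, with log2 fold changes of 0.071 and 0.059. Of the 14 60S genes 10 rose, among them Rrs1 (0.59), Brix1 (0.56), Gnl3 (0.48), Ebna1bp2 (0.40), Nop2 (0.29), a methyltransferase of 28S RNA, and Mrto4 (0.18), which holds the place of the ribosomal stalk. The box C/D proteins Nop56 and Fbl rose by 0.17 and 0.22, the former with the opposite sign on the FPKM scale (-0.00225). Among the H/ACA proteins Nhp2 rose (0.23). Bop1 (0.26), Wdr12 (0.25), Gnl2 (0.36) and the Nolc1 phosphoprotein (0.28) were also among the 35. The calls for Nop56, Mrto4, Rrp9, Fbl, Mybbp1a, Nhp2 and Gnl2 were lost in 2 to 5 of the 6 fits that left out 1 library, and those for Bop1 (without siSlc25a26 replicate 2, adjusted p = 0.055) and Polr1b (without siSlc25a26 replicate 3, adjusted p = 0.067) in 1.

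Sdad1, a factor for 60S export, was at 12.7, 13.4 and 13.8 CPM in the libraries labelled siSlc25a26 and 15.2, 16.8 and 18 CPM in those labelled siSlc25a26 PE (log2 fold change 0.34, SE 0.09, adjusted p = 0.012). Its adjusted p was 0.051 without siSlc25a26 replicate 1. Ncl (0.47) and Npm1 (0.45) rose as they did in siNeg. The 3 genes that fell were Tcof1, from 59.6, 55.9 and 60.9 to 48.5, 47.4 and 51.8 CPM (log2 fold change -0.25, SE 0.064, adjusted p = 0.011), Ubtf, from 129, 127 and 132 to 114, 114 and 105 CPM (log2 fold change -0.21, SE 0.051, adjusted p = 0.0076), and Pes1, from 71.3, 69.7 and 71.6 to 63.4, 63.9 and 61.1 CPM (log2 fold change -0.16, SE 0.05, adjusted p = 0.021). The same 3 genes fell with PE in siNeg. The calls for Tcof1 (adjusted p = 0.054) and Pes1 (adjusted p = 0.063) were lost without siSlc25a26 PE replicate 2, and that for Pes1 also without siSlc25a26 replicates 1 or 3.

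The PE comparisons in siNeg and in the libraries labelled siSlc25a26 share no library and can be set side by side. All 13 genes that rose in siNeg also rose in the libraries labelled siSlc25a26, where they were 37.1% of the 35. They were Ddx21, Nop58, Wdr43, Bms1, Nop14, Tsr1, Pno1, Rrs1, Brix1, Gnl3, Gnl2, Ncl and Npm1. With PE in the libraries labelled siSlc25a26, 71.4% of the 49 genes rose, and the overlap was not counted over all genes. Polr1b and Mybbp1a fell in siNeg and rose in the libraries labelled siSlc25a26, although the rise of Mybbp1a (0.17) turned to -0.00855 on the FPKM scale.

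The difference between the PE effects was tested in 1 model over all 12 libraries. In 10 of the 49 genes (20.4%, compared with 5.48% of all genes tested) the log2 fold change with PE was higher in the libraries labelled siSlc25a26 than in siNeg, and 1 of these, Rrp12, differed by more than 1.5-fold (compared with 2.16% of all genes). In the other direction edgeR found 0 of 49, also at an unadjusted p under 0.05, as did DESeq2 and limma-voom, compared with 5.73% of all genes (3.34% above 1.5-fold). On the FPKM scale limma found 9 genes higher and 1 lower with pseudocount 1, and 9 and 0 with pseudocount 0.1. The median difference over the 49 genes was 0.16, compared with -0.05 over all genes. For 5 of the 9 RNA polymerase I genes the effects differed: Polr1b by 0.58, Polr1a by 0.54, Mybbp1a by 0.44, Polr1e by 0.39 and Nolc1 by 0.37. The remaining 5 genes were Rrp12 (log2 difference 0.95, SE 0.12, adjusted p = 0.0005), Rrp9 (0.53), Nol6 (0.45), Nop2 (0.42) and Pno1 (0.32).

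In 7 of these 10 genes the fitted log2 fold change with PE was below 0 in siNeg, and in all 10 it was above 0 in the libraries labelled siSlc25a26. The 10 genes were chosen by this difference, so the signs are not a separate result. In siNeg the falls of Polr1b, Mybbp1a and Nol6 passed the test, and those of Polr1a, Nolc1, Nop2 and Rrp9 did not. The rise of Nol6 in the libraries labelled siSlc25a26 did not pass either. Polr1a was at 42.2, 33 and 38.7 CPM in siNeg, 36.8, 36 and 36.5 in siNeg PE, 37, 39.1 and 37.2 in siSlc25a26 and 53.6, 51.9 and 51.9 in siSlc25a26 PE. Polr1b was at 13.7, 13.8 and 12.1 CPM in siSlc25a26 and 16, 15.5 and 16.3 in siSlc25a26 PE, and its siNeg values are given above. Rrp9 was at 22.6, 20.6 and 19.6 CPM in siNeg, 16.2, 19.8 and 15.1 in siNeg PE, 22.5, 22 and 20.3 in siSlc25a26 and 26.9, 24.7 and 24.4 in siSlc25a26 PE. Pno1, Polr1e and Rrp12 had fitted log2 fold changes above 0 in siNeg as well. Those of Polr1e (0.18) and Rrp12 (0.15) did not pass the test there. Pno1 rose in both backgrounds, from 21.9, 24.3 and 22.5 to 28.6, 29.6 and 28 CPM in siNeg. Without siNeg PE replicate 3, 8 genes differed in place of 10. The calls for Rrp9 and Pno1 were lost in 8 and 7 of the 12 fits that left out 1 library, and that for Polr1e in 3 (adjusted p = 0.052 without siNeg replicate 1, and 0.054 without siSlc25a26 PE replicate 2 and without siSlc25a26 replicate 1).

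**Figure D3:**
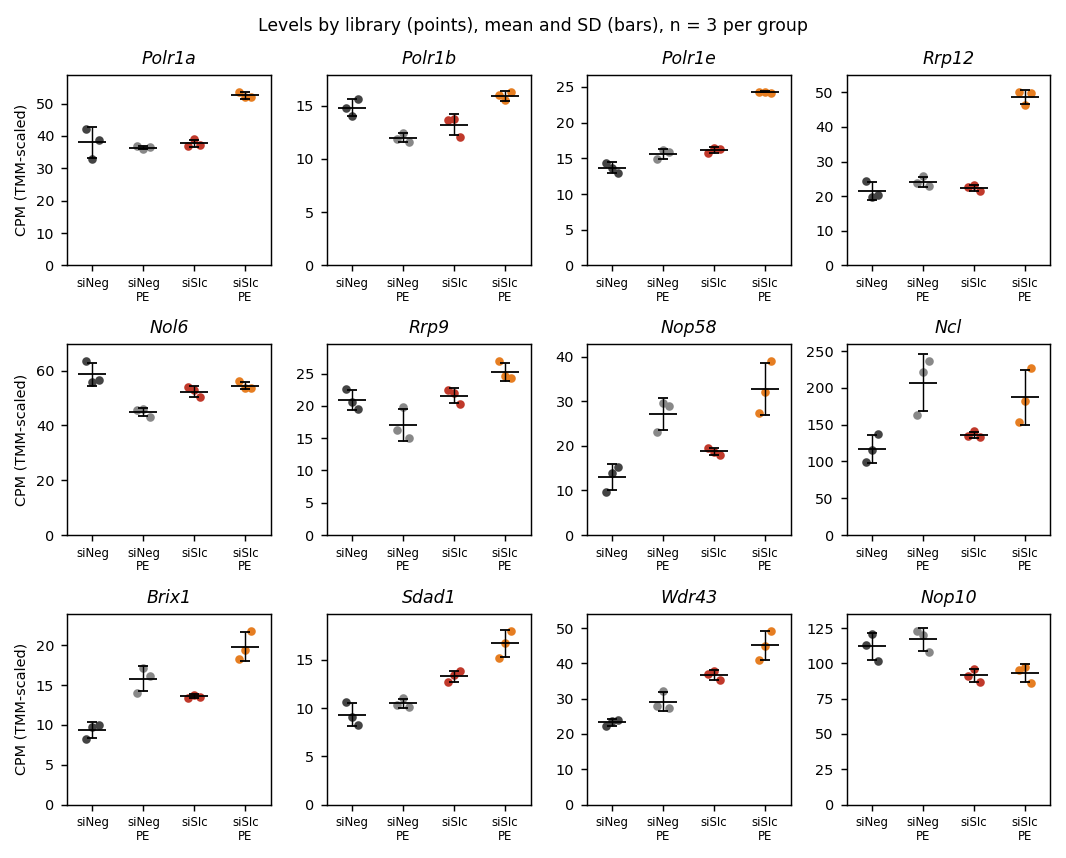
Level of 12 of the genes in CPM (vertical axis, from 0) in each library of the 4 groups (points), with the mean and SD of 3 libraries (bars). Rrp12 is highest in the libraries labelled siSlc25a26 PE (46.3 to 50.1 CPM), while Nop58 is higher with PE in both backgrounds.

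Without PE, 9 of the 49 genes were higher and 5 were lower in the libraries labelled siSlc25a26 than in siNeg (18.4% and 10.2%), compared with 23.3% and 21.7% of all genes tested. Above 1.5-fold, 1 gene rose and no fall was as large, compared with 8.92% and 7.2%. The median log2 fold change was 0.03 (0.01 over all genes), and it changed sign to -0.0076 without siNeg replicate 3. The number of genes that fell was 2 or 3 without siNeg replicate 1 or 2 or any siSlc25a26 replicate and 9 without siNeg replicate 3. The FPKM values gave 16 rises and 2 falls. The interferon response genes (9 of 9 tested rose, with a median log2 fold change of 6.69) and the fibroblast markers (8 of 10 fell) moved with the same comparison.

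Wdr43 rose most, from 22.2, 23.6 and 24.1 CPM in siNeg to 36.9, 37.9 and 35.2 CPM in the libraries labelled siSlc25a26 (log2 fold change 0.63, SE 0.067, adjusted p = 0.00011). Brix1 was at 13.4, 13.8 and 13.5 CPM in these libraries (log2 fold change 0.51, SE 0.10, adjusted p = 0.0031), Nop58 at the values given above (log2 fold change 0.50, SE 0.15, adjusted p = 0.024) and Gnl3 at 15.6, 16.5 and 15.1 CPM (log2 fold change 0.48, SE 0.11, adjusted p = 0.0084). Sdad1 was at 10.6, 9.08 and 8.23 CPM in siNeg and 12.7, 13.4 and 13.8 CPM in the libraries labelled siSlc25a26 (log2 fold change 0.49, SE 0.11, adjusted p = 0.0071). Each of these groups lay above siNeg without overlap, which the rule for naming the largest changes required. The call for Nop58 was lost without siSlc25a26 replicate 1 or 2 (adjusted p = 0.073 and 0.061). Utp15 (0.33), Gnl2 (0.26), Nop14 (0.23) and the pre-40S factor Ltv1 (0.21) also rose, the last 3 with calls lost in 4 or 5 of the 6 fits that left out 1 library.

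Nop10, the small protein that ties the pseudouridine synthase into the H/ACA snoRNP, fell without PE. It was at 113, 121 and 102 CPM in siNeg and 91.4, 96.2 and 87 CPM in the libraries labelled siSlc25a26 (log2 fold change -0.32, SE 0.072, adjusted p = 0.0072). Ddx21 was at 57.2, 62.7 and 66.9 CPM in siNeg and 52.3, 51.3 and 51.3 CPM in these libraries (log2 fold change -0.29, SE 0.063, adjusted p = 0.0052). These falls held in each fit that left out 1 library. Nol6 fell to the values given above (log2 fold change -0.19, SE 0.064, adjusted p = 0.038), Pes1 likewise (log2 fold change -0.18, SE 0.054, adjusted p = 0.024), and Nob1 from 50.6, 48.4 and 47.6 to 45.3, 43.4 and 43.9 CPM (log2 fold change -0.17, SE 0.055, adjusted p = 0.031). The calls for Nol6, Pes1 and Nob1 were lost in 5, 4 and 5 of the 6 fits that left out 1 library.

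Under PE, the libraries labelled siSlc25a26 PE had higher levels of most of the 49 genes than siNeg PE. Here 27 of 49 rose and 1 fell (55.1% and 2.04%), compared with 20.1% of all genes tested in each direction. The median log2 fold change was 0.27, compared with -0.0028 over all genes. Above 1.5-fold, 4 genes rose and no fall was as large, compared with 7.71% and 8.1% of all genes. The FPKM values gave 19 rises and 3 falls. Without siNeg PE replicate 3, 20 genes rose and 2 fell, and the calls lost were those for Nop2 (adjusted p = 0.051), Fbl (0.062), Wdr12 (0.086), Brix1 (0.089), Ltv1 (0.14), Nip7 (0.15) and Gar1 (0.17). Slc25a26 itself did not differ between these groups. The interferon response genes (9 of 10 rose), the cycling-cell markers (10 of 10 fell) and the fibroblast markers (8 of 10 fell) moved with the comparison, and their part in it was not tested. This comparison shares the siNeg PE libraries with PE in siNeg and the libraries labelled siSlc25a26 PE with the other PE comparison.

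The largest differences under PE were in Rrp12 (log2 fold change 1.00, SE 0.074, adjusted p = 1.4e-05), Sdad1 (log2 fold change 0.67, SE 0.10, adjusted p = 0.00092), Polr1e (log2 fold change 0.63, SE 0.073, adjusted p = 0.00024), Wdr43 (log2 fold change 0.62, SE 0.10, adjusted p = 0.0011) and Rrp9 (log2 fold change 0.56, SE 0.11, adjusted p = 0.0033). Sdad1 was at 10.3, 11 and 10.1 CPM in siNeg PE and Polr1e at 14.9, 16.1 and 15.9 CPM, and Wdr43 was at 27.9, 32.2 and 27.3 CPM in siNeg PE and 41, 45 and 49.2 CPM in siSlc25a26 PE. The groups did not overlap in any of these 5 genes, which the rule for naming the largest changes required. By role, 5 of 9 RNA polymerase I genes, 8 of 12 SSU processome genes, 4 of 5 late 40S genes and 8 of 14 60S genes were higher in the libraries labelled siSlc25a26 PE. Of the 3 box C/D genes 1 was higher, and of the 4 box H/ACA genes 1 was higher and 1 lower. Nol6 (log2 fold change 0.27, SE 0.064, adjusted p = 0.0092) and Rrp7a (log2 fold change 0.35, SE 0.084, adjusted p = 0.0097) were among the higher SSU processome genes. The call for Rrp7a was lost without siSlc25a26 PE replicate 2 (adjusted p = 0.052). The calls of Brix1, Fbl, Gar1, Nip7 (a 60S factor), Ltv1, Wdr12 and Wdr75 were lost in 3 to 6 of the 6 fits that left out 1 library. Ncl (-0.15) and Npm1 (-0.024) did not pass the test.

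Nop10 was the 1 gene that fell under PE as well. It was at 123, 120 and 108 CPM in siNeg PE and 95.6, 97.8 and 85.8 CPM in siSlc25a26 PE (log2 fold change -0.34, SE 0.077, adjusted p = 0.0074). The 2 comparisons of the siRNA, without and with PE, share no library. Of the 9 genes that rose without PE, 6 (66.7%) also rose under PE, where they were 22.2% of the 27: Utp15, Wdr43, Ltv1, Brix1, Gnl3 and Sdad1. This overlap, too, was not counted over all genes. Nol6 fell without PE and rose under PE. In no pairwise comparison did Dkc1, Rrn3 or the 60S factors Nop16 and Rrp1 pass the test. Rrn3 was at 84.3, 84.3 and 83.8 CPM in siNeg and 83.1, 84.5 and 83.3 CPM in siSlc25a26 PE. It was at 83.1, 82.9 and 84.7 CPM in siNeg PE and, somewhat higher, at 88.7, 92.5 and 88.7 CPM in siSlc25a26.

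Other genes of the pathway were read in the same way. The list holds 141 further genes for ribosome biogenesis, of which 134 or 135 were tested. With PE in siNeg 39 rose and 14 fell (29.1% and 10.4%, compared with 25.2% and 24.3% of all genes). Without PE 38 were higher and 8 lower in the libraries labelled siSlc25a26 (28.4% and 5.97%, compared with 23.3% and 21.7%). These shares of rises were near those of all genes. With PE in the libraries labelled siSlc25a26, 62 rose and 8 fell (45.9% and 5.93%, compared with 26.4% and 26%), and under PE 46 were higher and 4 lower (34.1% and 2.96%, compared with 20.1% in each direction). The PE effects differed upward in 6 and downward in 2 (4.44% and 1.48%, compared with 5.48% and 5.73%). Esf1, a factor for 18S RNA, rose with PE in siNeg (1.15, adjusted p = 0.01) and in the libraries labelled siSlc25a26 (0.81, adjusted p = 0.0063), and without PE in the latter (0.78, adjusted p = 0.021). With PE the exosome nuclease Dis3 rose in siNeg (1.08, adjusted p = 0.003) and in the libraries labelled siSlc25a26 (0.70, adjusted p = 0.014). The 60S factors Rpf2 (0.85, adjusted p = 0.002, and 0.74, adjusted p = 0.0021) and Mdn1 (0.46, adjusted p = 0.017, and 0.74, adjusted p = 0.0023) likewise rose in both. Wdr46 of the SSU processome was higher under PE in these libraries (0.96, adjusted p = 0.00013).

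Some genes of this list fell in several comparisons. Nop53, which brings the exosome to the pre-60S subunit, fell in each of the 4 pairwise comparisons, by 0.55 with PE in siNeg, by 0.41 without PE, by 0.45 under PE and by 0.59 with PE in the libraries labelled siSlc25a26 on the log2 scale. The exosome subunit Exosc5 fell with PE in siNeg (-0.48, adjusted p = 0.013), in the libraries labelled siSlc25a26 (-0.77, adjusted p = 0.00017) and under PE (-0.43, adjusted p = 0.019), and Exosc6 with PE in the libraries labelled siSlc25a26 (-0.32, adjusted p = 0.045). The helicase Dhx37 fell with PE in siNeg (-0.47, adjusted p = 0.00092) and in the libraries labelled siSlc25a26 (-0.24, adjusted p = 0.016). Polr2l, a small subunit common to the nuclear RNA polymerases, fell without PE (-0.37, adjusted p = 0.0011) and under PE (-0.41, adjusted p = 0.0021), and Polr1d, common to RNA polymerases I and III, without PE (-0.32, adjusted p = 0.0086). A few genes rose from counts that were near 0 or uneven within a group, so that no fold is given. Ddx52 had 0 counts in each siNeg library and 34, 90 and 21 in siNeg PE and 75, 100 and 79 in siSlc25a26. Nol8 had 20, 0 and 0 counts in siNeg and 33, 55 and 64 in siSlc25a26. Under PE, Tsr2 had 19, 0 and 0 counts in siNeg PE and 86, 69 and 16 in siSlc25a26 PE, and Polr2h had 82, 50 and 81 in the former and 133, 146 and 267 in the latter.

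The genes for the cytosolic ribosomal proteins, 77 in all, were counted beside the genes that assemble the ribosome, with no test of the difference between the lists. With PE in siNeg 0 of 76 rose and 14 fell (0% and 18.4%, compared with 25.2% and 24.3% of all genes). The fitted log2 fold change was below 0 in 68 of the 76 (median -0.139). With PE in the libraries labelled siSlc25a26 12 rose and 10 fell (15.6% and 13%, compared with 26.4% and 26%). Without PE, 1 of 76 was higher and 70 were lower (92.1%, compared with 21.7% of all genes) in the libraries labelled siSlc25a26 than in siNeg (median log2 fold change -0.56). Under PE, 2 were higher and 64 were lower (84.2%, compared with 20.1%) than in siNeg PE (median -0.43), although 27 of the 49 biogenesis genes were higher there. Ribosomal protein genes have many processed copies in the genome, so that single genes of this list are uncertain.

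**Figure D4:**
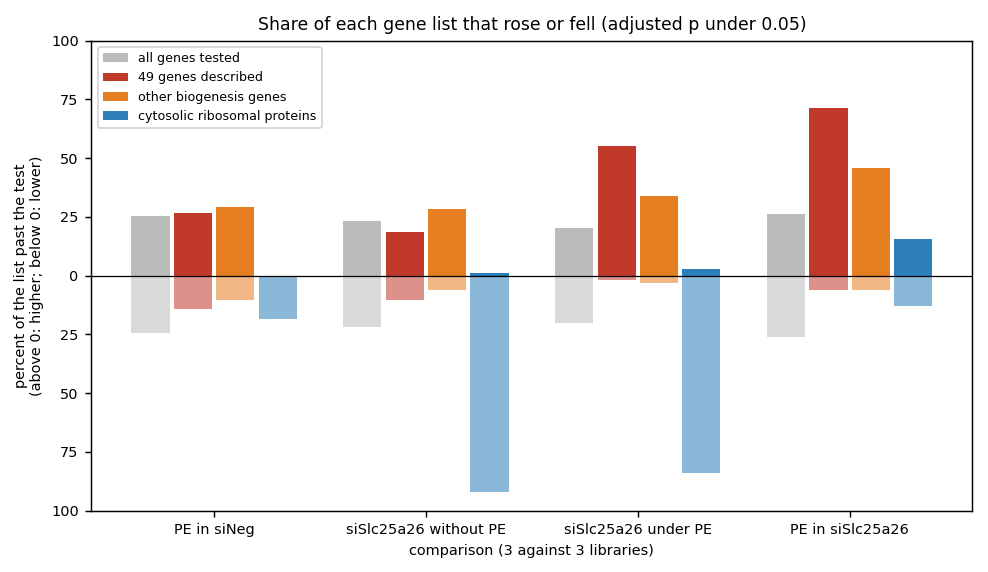
Percent of each gene list that rose (above 0) or fell (below 0, paler) at an adjusted p under 0.05, for the 4 pairwise comparisons of 3 against 3 libraries. Under PE, 55.1% of the 49 genes are higher in the libraries labelled siSlc25a26 while 84.2% of the tested ribosomal protein genes are lower.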

How the data were processed

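RNA of NRVMs from 12 libraries in 4 groups of 3 was sequenced by BGI. The authors deposited estimated counts per gene, of which 20.8% to 21.9% per library are not whole, and FPKM values. HISAT, Bowtie2 and Rnor_6.0 are named in the submitters' processing notes. The counting program, annotation and strand setting are not given in the sources used here, so overlapping genes cannot be told apart. Groups and replicate numbers came from the labels. The paper calls the replicates of a group independent biological samples, though for an siRNA against Nap1l5 in place of Slc25a26. The labels do not name separate cultures, and p-values measure the spread between these libraries. No 2 libraries were repeats of each other.

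Counts were rounded and tested with edgeR 4.0.16 in R 4.3.3 (TMM, filterByExpr, quasi-likelihood F-test), with only the groups compared in each fit and all 12 libraries for the difference between PE effects. P-values were adjusted by Benjamini-Hochberg over all genes tested, and a gene passed at an adjusted p under 0.05. Standard errors came from the F statistic. With 3 against 3 libraries an exact permutation test of a single gene cannot go below p = 0.1, so none is given. The 49 genes and the other lists (roles, 141 further pathway genes, ribosomal proteins, cell type markers, motifs) were chosen with earlier results of these data known. Named with values by library are Nol6, Rrp7a and Sdad1, and, by rule, the 5 genes with the largest rise and fall in each pairwise comparison among those past the test without overlap, and the 5 with the largest difference between PE effects. The 3 further pathway genes with the largest rise and fall are named too. On simulated counts, 200 of 200 genes changed 2-fold were found for PE in siNeg and 196 of 200 for the difference between PE effects, and 13 and 11 unchanged genes were called in these runs. The changed genes were well counted and all genes were given the same spread. The runs therefore do not show how often smaller changes, as most here, are found.

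Alternatives were DESeq2 1.42.0, limma-voom (limma 3.58.1), DESeq2 size factors, limma on log2 FPKM values (pseudocounts 1 and 0.1), no filter, at least 10 counts per library, a replicate block, 1 fit of all 12 libraries, a 1.5-fold limit and each library left out in turn. Promoters came from RefSeq (GRCr8). Protein sequences were not used here.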

Additional observations from a re-analysis of the deposited data

Results flagged for a closer look

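In 10 of the 49 genes the PE effect in the libraries labelled siSlc25a26 differed from that in siNeg by a test of the difference itself (edgeR's interaction term over 12 libraries). Each was higher in the libraries labelled siSlc25a26, by a log2 difference of 0.95 for Rrp12, 0.58 for Polr1b, 0.54 for Polr1a, 0.53 for Rrp9, 0.45 for Nol6, 0.44 for Mybbp1a, 0.42 for Nop2, 0.39 for Polr1e, 0.37 for Nolc1 and 0.32 for Pno1. The adjusted p was 0.0005 for Rrp12 and 0.0059 to 0.038 for the others. The call for Rrp9 was lost without siNeg replicates 1 or 2, siNeg PE replicates 1 or 3, siSlc25a26 replicates 2 or 3 and siSlc25a26 PE replicates 1 or 2 (log2 difference 0.46 to 0.55), and that for Pno1 without siNeg replicate 2, any siNeg PE replicate, siSlc25a26 replicates 1 or 3 and siSlc25a26 PE replicate 2 (0.28 to 0.35). A knockdown of Slc25a26 was not seen in the libraries labelled siSlc25a26 PE.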

How the results depend on the processing

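Over all alternatives and single genes, 3599 of the fits lay on the same side of the threshold as reported, 220 lost a call and 93 gained one. In 8 the sign changed and the gene passed the test in the reported fit, the alternative or both. Sign changes of genes that passed in neither fit are counted among the 3599. The 8 were 4 genes of PE in the libraries labelled siSlc25a26 on the FPKM scale, with log2 fold changes (pseudocounts 1 and 0.1) of -0.162 and -0.167 for Nob1, -0.00855 and -0.00878 for Mybbp1a, -0.00225 and -0.00236 for Nop56 and -0.0147 and -0.0162 for Utp15. The cause was not tested. On this scale, with both pseudocounts, 16 genes rose and 2 fell without PE (medians 0.0848 and 0.0943), 3 fell under PE (medians 0.179 and 0.197), and 15 rose and 5 fell with PE in the libraries labelled siSlc25a26 (medians 0.102 and 0.11). The difference between PE effects had medians of 0.0484 and 0.0507, with 1 gene lower at pseudocount 1. Above 1.5-fold, the genes that rose were 3 with PE in siNeg, 1 without PE, 4 under PE, 6 with PE in the libraries labelled siSlc25a26 and 1 for the difference, and 0 fell.

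Whether the replicate numbers pair the libraries was not settled, and the reported fits do not use them. For PE in siNeg, the correlation of deviations between libraries of the same number was 0.496, 0.0728 and 0.553. Between libraries of different numbers it was -0.578 to 0.099. Under PE, the values were 0.441, -0.0514 and 0.338 for the same number and -0.522 to 0.31 for different numbers. Those for the same number were 0.105, -0.025 and 0.0239 without PE. They were -0.148, -0.0998 and -0.1 for PE in the libraries labelled siSlc25a26. In fits with a replicate block, 17 genes rose and 11 fell with PE in siNeg, 36 rose and 3 fell under PE, 31 rose and 2 fell with PE in the libraries labelled siSlc25a26, 6 rose and 6 fell without PE, and 12 PE effects differed upward.

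Leaving out 1 library gave medians of 0.0497 to 0.137 for PE in siNeg, 2 to 9 genes that fell without PE, 1 to 2 that fell under PE and 1 to 3 that fell with PE in the libraries labelled siSlc25a26. In these fits 19 to 27 genes rose under PE and 26 to 34 rose with PE in the libraries labelled siSlc25a26. The lowest count of a gene in a library was 176. Under PE a knockdown of Slc25a26 was not seen, although the interferon response genes set the libraries labelled siSlc25a26 PE apart from siNeg PE.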

Other observations

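Some of the 49 genes carry genes for small nucleolar RNAs (snoRNAs), the guides of snoRNPs, in their introns. In the RefSeq annotation of GRCr8, snoRNA genes were nested in 6 of the 49 (12.2%), compared with 1.79% of the 23154 protein-coding genes. These hosts were Nop56, Nop58, Wdr43, Tsr1, Gnl3 and Ncl, with, for example, Snord57, Snord86 and Snord110 in Nop56 and Snord19 and Snord69 in Gnl3. With PE in siNeg, 5 of the 6 hosts rose (median log2 fold change 0.48), compared with 8 of the other 43 genes (median 0.05). With PE in the libraries labelled siSlc25a26 all 6 rose (median 0.48), compared with 29 of 43 (median 0.24). Without PE, 3 of the 6 were higher in the libraries labelled siSlc25a26 and 6 of the other 43, and under PE 3 of 6 and 24 of 43. Of all genes tested, 25.2%, 26.4%, 23.3% and 20.1% were higher in these comparisons, in the same order. The snoRNA hosts outside the 49 genes were not counted. The hosts were looked at after these values were seen, so no test is given. Reads of nested snoRNAs may be counted with the host gene, and this was not tested.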
